A study of Mus musculus with 52 samples.

Results

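The enhancer regions described here are those that the study named to a gene outside its 2 sets of activity-regulated genes. The authors' sheets of histone H3 lysine 27 acetylation (H3K27ac) hold 940 enhancer regions, each with the gene named as nearest and the distance to it, and the study's table of RNA polymerase II (Pol II) at transcription start sites (TSSs) marks rapid (rPRG) and delayed (dPRG) primary response genes. A region was taken where no entry of its named gene in that table is rPRG or dPRG, or where the name is absent from the table. This gave 454 regions named to 141 of 259 genes, and left 85 regions at 17 rapid genes and 401 regions at 101 delayed genes. Acetylation values played no role in the choice, and the files do not say from which measurement the classes were set.

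The cells were primary culture neurons of CD1 mice, with no genotype or transgene given. For H3K27ac, neurons in U0126 or in vehicle (DMSO) were taken after 10, 30 or 60 min of activity, or unstimulated, with 2 libraries in each of these 8 groups. For Pol II, the vehicle libraries compared here were those after 10, 30 and 60 min and those of neurons left unstimulated for 1 h, again with 2 libraries each. All 31 Pol II libraries entered the fit and set its spread and the filter on density. They include U0126 libraries, those after 1, 180 and 360 min and those unstimulated for 6 h, and U0126 at 180 min had 1 library. The labels name neither the stimulus nor the age and brain region of the neurons, and do not say whether 2 libraries of a group came from separate cultures. Every p-value therefore measures the spread between these libraries, which may be technical. At the Pol II start sites, all 13 neuron markers and 0 of 12 microglia markers were in the upper 50% of genes by density, with medians over the unstimulated vehicle libraries of 0.894 and 0.955 for the neuron list and 0.143 and 0.171 for the microglia list. In the upper 50% were also 5 of 12 astrocyte and 5 of 12 oligodendrocyte lineage markers, so the cultures were not shown to hold neurons only, and the part of glial cells in the acetylation values was not tested.

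H3K27ac is written by the acetyltransferases CBP and p300 and marks enhancers and promoters that are in use. In neurons, calcium entry during activity leads through CaM kinases and the RAF, MEK and ERK kinases to factors such as CREB and SRF, which act at promoters and at distal enhancers of activity-regulated genes. U0126 blocks MEK1 and MEK2, the kinases that activate ERK. An enhancer is usually assigned to a gene by distance, although it can act on a gene farther away.

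The sequences of the enhancers themselves are not printed, because the files use the mm9 build and no genome of that build was used here. Sequences are shown for the microRNAs whose start-site windows lie closest to regions described below, and for promoters of named genes at which Pol II or acetylation was higher after activity. They are from RefSeq (GRCm38.p6), and the seed, bases 2 to 8, is in capitals. The Mir670 window is the closest to 3 regions with higher acetylation at 60 min, and the Mir212 window, next to Mir132, to the region named at the greatest distance.
mmu-miR-670-5p: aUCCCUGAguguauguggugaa
mmu-miR-670-3p: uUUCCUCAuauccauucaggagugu
mmu-miR-212-3p: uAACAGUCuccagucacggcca
mmu-miR-132-3p: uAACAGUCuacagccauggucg
The last 2 share the seed AACAGUC, while the 2 arms of miR-670 have the seeds UCCCUGA and UUCCUCA. Promoters of 5 of the genes are shown as 300 bases, 250 before and 50 after the start, with capitals for matches on either strand to TGACG (part of the CREB site), TGANTCA (the AP-1 site), GCGNGGGCG (the EGR site) and the CArG box of SRF. The promoters are those of Dusp6 (chr10:99262981-99263280, + strand), Nfil3 (chr13:52980990-52981289, - strand), Ccno (chr13:112987552-112987851, + strand), Pdk3 (chrX:93832101-93832400, - strand) and Cyr61 under its RefSeq symbol Ccn1 (chr3:145649936-145650235, - strand).
Dusp6: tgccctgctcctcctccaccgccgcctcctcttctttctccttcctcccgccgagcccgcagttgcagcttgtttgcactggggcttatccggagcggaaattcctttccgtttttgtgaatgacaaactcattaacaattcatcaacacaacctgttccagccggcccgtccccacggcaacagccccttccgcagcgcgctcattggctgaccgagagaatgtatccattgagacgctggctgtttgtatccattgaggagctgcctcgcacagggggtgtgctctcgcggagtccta
Nfil3: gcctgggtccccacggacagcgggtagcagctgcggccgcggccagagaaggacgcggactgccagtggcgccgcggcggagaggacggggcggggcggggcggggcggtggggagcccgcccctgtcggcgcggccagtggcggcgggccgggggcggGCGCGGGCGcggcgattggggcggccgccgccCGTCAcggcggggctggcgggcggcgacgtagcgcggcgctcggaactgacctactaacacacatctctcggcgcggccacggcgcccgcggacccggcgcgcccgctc
Ccno: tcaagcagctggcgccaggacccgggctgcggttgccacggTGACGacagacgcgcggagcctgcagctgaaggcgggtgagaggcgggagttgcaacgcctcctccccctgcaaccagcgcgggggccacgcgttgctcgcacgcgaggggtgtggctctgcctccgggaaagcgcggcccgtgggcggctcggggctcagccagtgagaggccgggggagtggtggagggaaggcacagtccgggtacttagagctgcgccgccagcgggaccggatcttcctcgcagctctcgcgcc
Pdk3: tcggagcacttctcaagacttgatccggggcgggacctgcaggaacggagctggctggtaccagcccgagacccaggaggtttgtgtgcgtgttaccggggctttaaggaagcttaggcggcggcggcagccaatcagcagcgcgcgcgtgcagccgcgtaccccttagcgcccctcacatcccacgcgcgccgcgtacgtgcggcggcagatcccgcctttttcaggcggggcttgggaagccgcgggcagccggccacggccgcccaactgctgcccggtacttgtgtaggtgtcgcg
Ccn1: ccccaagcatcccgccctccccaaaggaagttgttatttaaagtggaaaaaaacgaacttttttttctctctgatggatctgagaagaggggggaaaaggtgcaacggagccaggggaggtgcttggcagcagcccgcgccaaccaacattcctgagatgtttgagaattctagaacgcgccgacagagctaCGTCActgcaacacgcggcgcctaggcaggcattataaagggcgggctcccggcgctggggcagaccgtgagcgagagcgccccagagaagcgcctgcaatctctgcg
TGACG was found 1 time each in the Nfil3, Ccno and Ccn1 windows and 0 times in the Dusp6 and Pdk3 windows, against 20.8% of 32851 RefSeq promoter windows of the same length with at least 1 match. The full CREB site TGACGTCA was in none of the 5 and is in 1.79% of all windows. The 5 promoters are a selection from the genes with higher Pol II or acetylation, so enrichment of a motif was not tested. GCGNGGGCG was found 1 time, in Nfil3, and is in 5.55% of all windows. TGANTCA and the CArG box, in 7.81% and 1.63% of all windows, were in none of the 5, which says only that these letters are not in these 300 bases.

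Before the values, the libraries have to be told apart. The H3K27ac values are normalized signals of unstated scale, with a separate sheet for each replicate number. The signal summed over all 940 regions was between 1129 and 1624, and the median over the 454 regions was between 0.861 and 1.06. No read counts are given, so the depth is unknown. In replicate 1, 5 libraries (vehicle at 10 and 30 min, U0126 at 10, 30 and 60 min) stood apart, with a median correlation under 0.65 with the replicate 2 libraries over all regions (0.307 to 0.574). The other 3 libraries of replicate 1 had medians of 0.728 to 0.762. All 5 were taken after activity, so in replicate 1 this difference and activity cannot be told apart except at 60 min in vehicle. Counts of changed regions are therefore given with and without these 5 libraries.

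**Figure D1:**
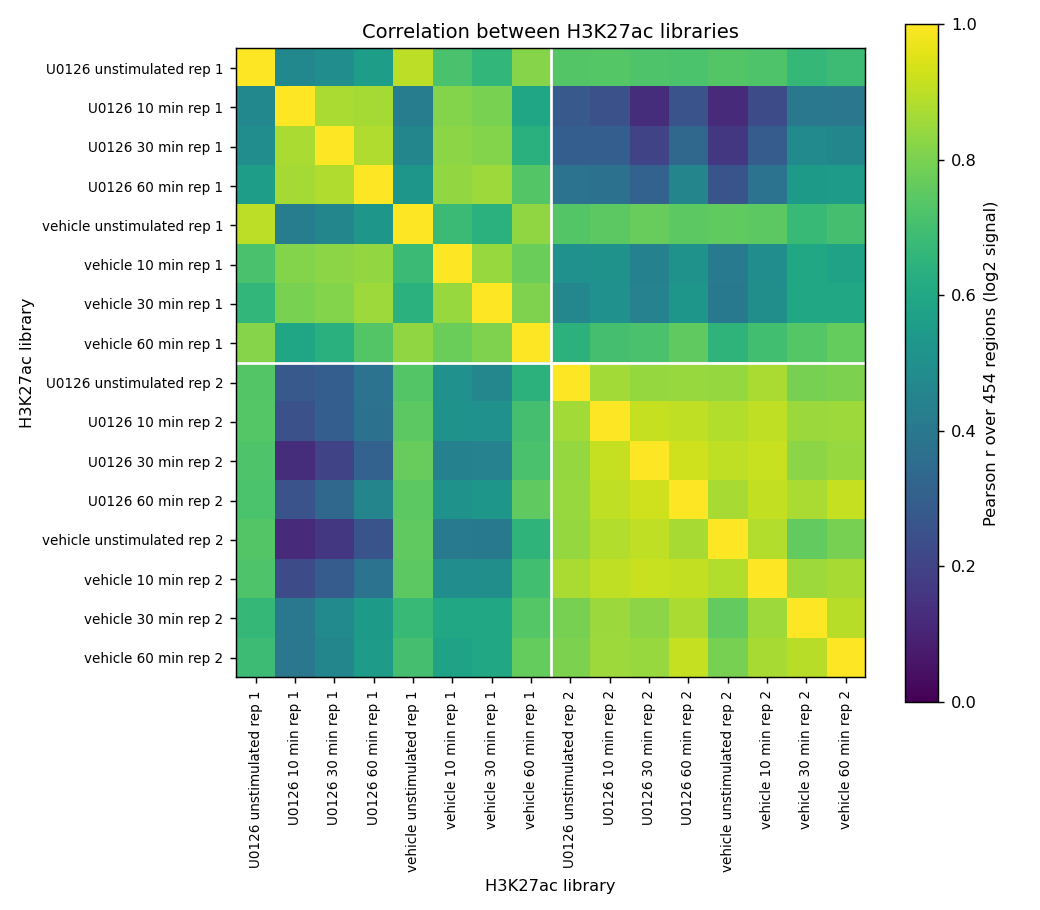
Pearson correlation of log2 H3K27ac signal over the 454 regions between the 16 libraries, U0126 before vehicle within each replicate number, with white lines between the replicate numbers. Replicate 2 libraries form 1 block of high correlation, and the 5 replicate 1 libraries after activity (all but vehicle 60 min) correlate less with it. Their correlation with replicate 2 was 0.119 to 0.548 for U0126 and 0.406 to 0.601 for vehicle at 10 and 30 min. Vehicle 30 min also correlated at 0.808 with vehicle 60 min in replicate 1, so the 5 are not sharply set apart.

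Nearly all of the named genes code for proteins. Of the 454 regions, 444 were named to 138 genes that RefSeq lists as protein-coding, and 10 regions to AK140370, Dbc1 and Spata2L, which were not matched. Most of the genes, 128 with 413 regions, carry the class "other" in the Pol II table, and 7 genes, with 9 regions, are control genes. Another 6 names with 32 regions are absent from it. Among these, D3Bwg0562e, with 15 regions, is listed by RefSeq as a synonym of Plppr4, whose window is the closest to all of its regions. AI836003 is a synonym of Ccdc184, which the study marks as dPRG and whose window lies 4379 to 13394 bp from the 4 regions named to AI836003. Both regions named to Dbc1 lie at exactly their given distance, 1784 and 91664 bp, from the window of Brinp1, also dPRG. By the closest window these 6 regions belong to delayed genes, and their acetylation ranged from 0.396 to 1.87. The second sheet gives other names to 10 regions, Grasp for AI836003 and Hsd17b12 for AK140370, both dPRG. The genes of voltage-gated potassium channel subunits were named often, Kcna1 with 13 regions, Kcna2 with 9 and Kcna4 with 7. D3Bwg0562e had 15 regions, the desmosomal cadherin gene Dsc1 11, the homeobox factor gene Cux2 9, and the ERK phosphatase gene Dusp6 and the G-protein regulator gene Rgs13 8 each, while 38 genes had 1 region.

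The gene named was often not the one with the closest start site. The given distances ran from 585 bp (Nfkbid region 3) to 4331544 bp (Omg region 1), with a median of 47732.5 bp. For 422 of the 454 regions the named gene has a window in the Pol II table, and for 190 of these another window was closer to the region's centre. These 190 lay a median of 63854 bp from the named gene and 12157.5 bp from the closest window. The other 232 lay a median of 30611 bp from their named gene. The 32 regions whose name is absent from the table could not be compared by name, and for 20 of them the closest window is that of the same gene under its RefSeq symbol. Beyond 100 kb lay 24 regions of 7 genes, of which 14 have a window of the named gene in the table, and another window was closer for all 14. Omg region 1, named to the oligodendrocyte myelin glycoprotein gene at 4331544 bp, is 849 bp from the window of Mir212. Fam72a regions 1 and 2, at 3714720 and 3672940 bp, are 27022 and 13724 bp from the windows of Map3k19 and Rab3gap1. Whether these distances are errors of the sheets was not tested.

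The regions within 5 kb of their named gene had a higher median acetylation than those farther away. The 38 regions within 5 kb of their named gene had a median signal of 1.72 (mean over 16 libraries). The median was 0.853 for 69 regions at 5 to 20 kb, 0.915 for 323 at 20 to 100 kb and 0.893 for 24 beyond 100 kb. In each of the 16 libraries the median within 5 kb was above that at 20 to 100 kb, with library medians of 1.20 to 2.70 against 0.846 to 1.01. As log2 ratio, regions beyond 20 kb against those within 5 kb were at -0.91 from medians and -0.55 from means, but at -0.14 when the farthest and nearest 25% of regions were compared. The same direction was seen for distance to any window, with a median of 1.39 for the 79 regions within 5 kb of a window and 0.888 for the other 375. Across regions, signal and distance to the named gene correlated weakly (Spearman's rho -0.06, n = 454), and signal and distance to the closest window somewhat more (-0.19), where regions of 1 library share its depth and processing. Region width, between 1010 and 5190 bp with a median of 1120, correlated with the signal at 0.20, and whether the signal is per length is not stated. Regions named to rapid genes had a median signal of 1.60 (n = 85) and those named to delayed genes 1.03 (n = 401), against 0.954 for the 454 regions.

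**Figure D2:**
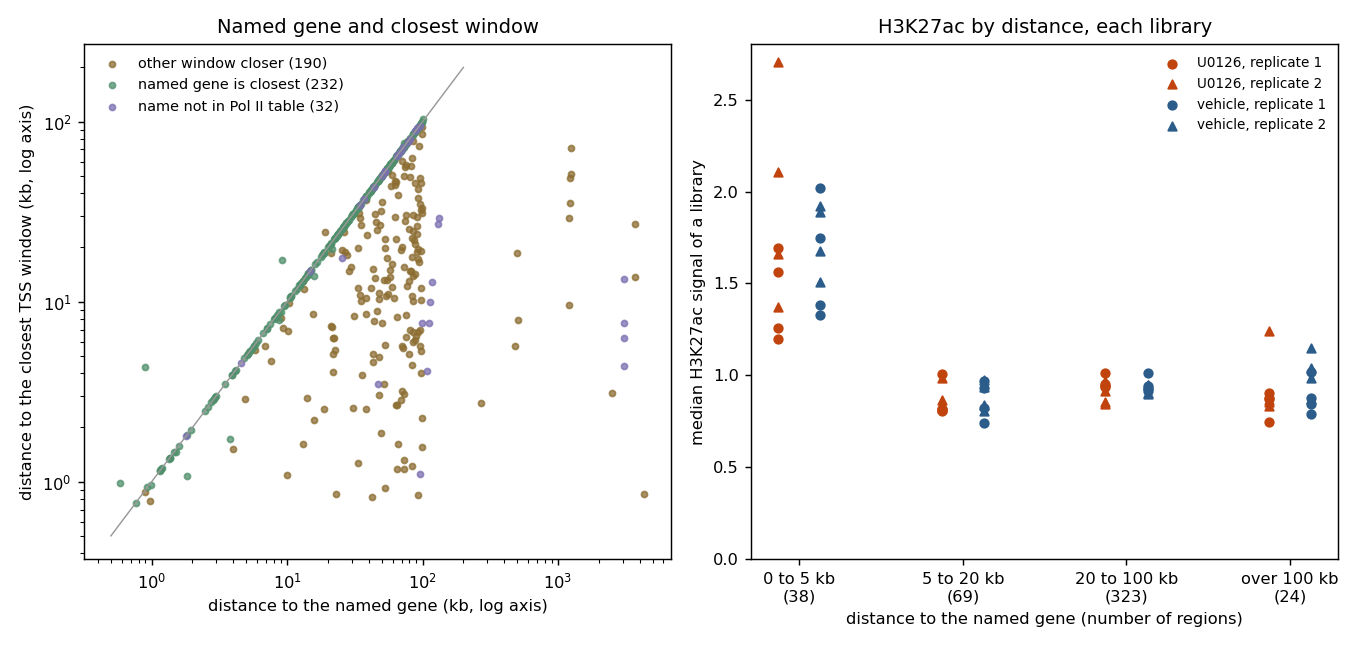
Left, distance of each region to the closest Pol II window against the given distance to the named gene (kb, log axes, grey line at equality), with 190 regions closer to another window, 232 closest to the named gene and 32 whose name is not in the Pol II table. A few points whose named gene is closest lie off the line because the given distance differs from the one recomputed here. Right, median H3K27ac signal of each library by distance to the named gene, where the medians within 5 kb (1.20 to 2.70) lie above those from 5 to 100 kb.

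The strongest region, Apex1 region 1 (chromosome 14, 51588810 to 51589830), is named to a DNA repair endonuclease gene 44625 bp away and lies 13505 bp from the window of Pnp2. Its signal was 9.53 to 18.4 in the 8 replicate 1 libraries and 2.33 to 3.70 in the 8 replicate 2 libraries, and the sheets did not overlap. Bcl9 region 3, named to a co-activator of Wnt signalling, had a lowest, median and highest signal of 3.29, 5.47 and 8.94. The values were 2.61, 4.95 and 8.24 for Kcnj4 region 5, named to an inward rectifier channel gene, and 1.95, 4.60 and 6.91 for Dusp6 region 2, 1579 bp from the Dusp6 start. The weakest were Klhl4 region 1, Slitrk4 region 2 and Tll1 region 1, with means of 0.200, 0.239 and 0.245. None of these 7 regions passed the test of activity at 60 min described below with or without a block for the replicate number (lowest adjusted p 0.733 by limma with the block).

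Taken over all 454 regions, acetylation differed little between the times. In vehicle the median signal was 1.04 and 0.984 in the unstimulated libraries, 0.947 and 0.986 at 10 min, 0.950 and 0.892 at 30 min, and 0.968 and 0.926 at 60 min. The U0126 libraries had medians of 0.966 and 0.918 unstimulated and 0.995 and 0.861 after 10 min. Their medians were 0.958 and 1.06 after 30 min and 0.959 and 0.886 after 60 min. The vehicle libraries at 30 and 60 min thus lay slightly below both unstimulated ones, while the U0126 libraries at 60 min overlapped theirs. After each library was centred on its median over all 940 regions, vehicle libraries gave a median log2 change of -0.02 at 10 min. The median was 0.02 at 30 min and also at 60 min. At 60 min in vehicle 239 of the 454 regions had a positive value. By distance the median log2 change at 60 min with both drugs joined was 0.12 within 5 kb, -0.04 at 5 to 20 kb, -0.01 at 20 to 100 kb and 0.16 beyond 100 kb. The last value is from 24 regions of 7 genes, and 6 of these are the neighbouring AK140370 regions, with changes of 0.26 to 0.90. Another 4 are named to AI836003 but lie near the window of its RefSeq symbol Ccdc184. The value beyond 100 kb therefore does not describe distal enhancers in general.

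Single regions did differ at 60 min, and whether they pass depends on the replicate block. Changes were tested with limma on log2 of the signal plus 0.628, with Benjamini-Hochberg adjustment over all 940 regions, and a region was called at an adjusted p under 0.05. With a mean per group and no block, limma called 0 of the 454 regions in each of the 16 comparisons of time and drug, against 3 of 940 regions (0.319%) at 60 min with both drugs joined. At an unadjusted p under 0.05 the 60 min comparison with both drugs joined held 31 of the 454 regions, 6.83%, against 10.6% of all regions. The 2 sheets differ in the same direction across groups at many regions, and with the replicate number as a block limma called 15 of the 454 regions, 3.30%, against 50 of 940 (5.32%). Of the 15, 11 were higher and 4 lower at 60 min, against a background of 4.15% higher and 1.17% lower. The 454 regions were 48.3% of those tested and their 15 were 30% of those called. In vehicle alone AK140370 region 3 was called as higher with the block, 1 region against 0.745% of all regions, and 13 regions had an unadjusted p under 0.05 without it (3.94% of all regions). In U0126 alone 2 regions were called as higher with the block, Nfil3 region 4 and Dusp6 region 6, against 1.17% of all regions higher and 0.106% lower (1.28% in all). The unadjusted count at 60 min in U0126 was 12 without the block, against 4.36% of all regions. With the block, leaving out any 1 of the 16 libraries gave between 6 and 27 called regions. The count was 6 without vehicle 60 min replicate 1 or U0126 60 min replicate 1, and 9 without U0126 unstimulated replicate 1. It was 23 without U0126 unstimulated replicate 2, and 27 without U0126 30 min replicate 1 or 2. Without the 5 libraries that stood apart, 39 regions passed with the block, with 2 residual degrees of freedom, and 6 with no block. The 6 were Dusp6 region 6, Nfil3 region 4, AK140370 regions 1 and 2, Pdk3 region 1 and Nfkbid region 3, so the other 10 of the 15 did not pass there. No share over all 940 regions is given for the fits with libraries left out, so those counts do not set the 454 regions apart. Signals did not overlap between the 4 libraries at 60 min and the 4 unstimulated libraries at 26 of the 454 regions that were higher (7.23% of all regions) and 14 that were lower (3.94% of all regions).

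**Figure D3:**
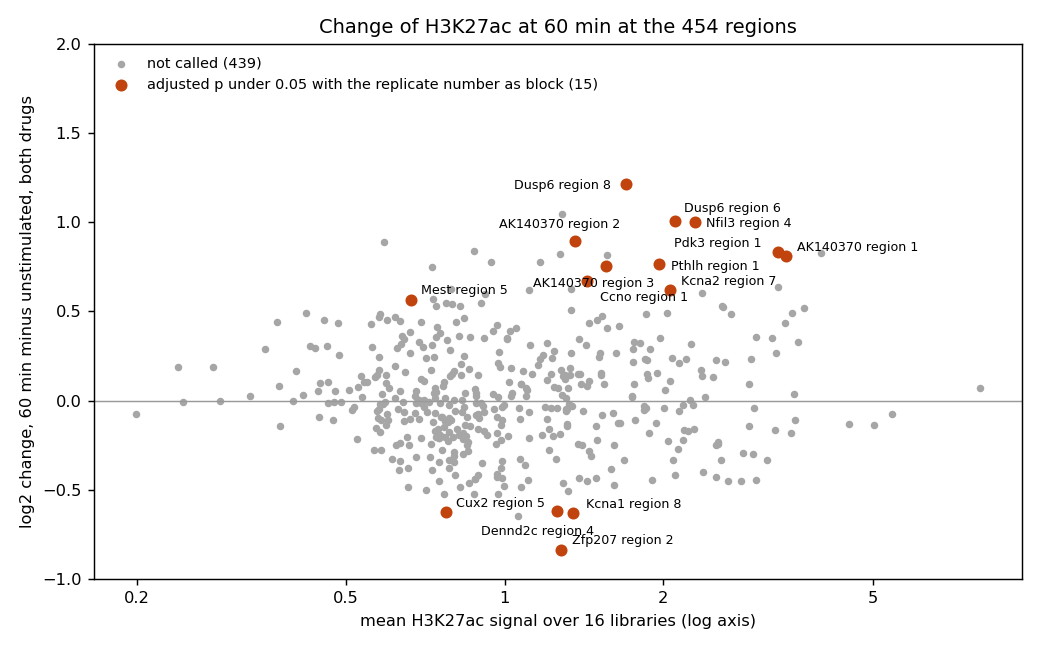
Log2 change of H3K27ac at 60 min (4 libraries of both drugs, minus 4 unstimulated libraries) against mean signal over 16 libraries (log axis) for the 454 regions. The 15 called with the replicate number as a block are named, 11 above and 4 below 0, and the unnamed regions centre on 0.

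At the Dusp6 locus distal regions rose. Dusp6, a phosphatase that inactivates ERK, had 8 regions, all closest to its own window. Region 6 (chromosome 10, 98785520 to 98786820), 60306 bp from the start, had a signal of 3.62 and 2.27 in U0126 and 3.02 and 2.30 in vehicle at 60 min, against 1.20 and 1.02 in U0126 and 1.08 and 1.04 in vehicle without activity. All 4 libraries at 60 min lay above all 4 unstimulated libraries. The log2 change was 1.01 (SE 0.165, limma adjusted p 0.00198 with the block and 0.0976 without), and it was called with the block without each library in turn and without a block when the 5 libraries were left out (adjusted p 0.0347). Region 8, 87241 bp from the start (chromosome 10, 98812510 to 98813700), had 4.79 and 0.994 in U0126 and 1.83 and 1.24 in vehicle at 60 min, against 0.709 and 0.436 in U0126 and 0.529 and 0.273 in vehicle unstimulated. Its log2 change of 1.21 (SE 0.285, adjusted p 0.0181 with the block, 0.388 without) came from groups that did not overlap, although replicate 1 was far above replicate 2 in U0126. Regions 5 and 7 had values of 0.43 and 0.75 and did not pass (adjusted p 0.0585 and 0.272 with the block). Regions 1 to 4, at 1579 to 34581 bp from the start, had log2 changes of -0.21 to 0.13 and did not pass. The strongest of them, region 2 near the promoter, was at -0.13 (adjusted p 0.784 with the block). It passed as lower under cyclic loess with no block (-0.54, adjusted p 0.0442).

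At Nfil3, a basic leucine zipper repressor gene, the region that rose was next to the promoter. Region 4 (chromosome 13, 53077580 to 53078880), 1822 bp from the start, had a signal of 2.92 and 3.39 in U0126 and 3.44 and 2.82 in vehicle at 60 min, against 1.14 and 1.31 in U0126 and 1.31 and 1.36 in vehicle unstimulated. The groups did not overlap, and the values at 10 and 30 min lay between or near them, 1.62 and 2.76 in vehicle at 10 min and 2.34 and 2.61 at 30 min. The log2 change at 60 min was 1.00 (SE 0.165, adjusted p 0.00198 with the block, 0.0811 without). It was called with the block without each library, and without a block when the 5 libraries were left out (adjusted p 0.0202). The other 4 Nfil3 regions, 9154 to 75477 bp away and 2 of them closer to the window of Auh, had log2 changes of -0.25 to 0.15 and did not pass. The Nfil3 promoter printed above holds a TGACG and a GCGNGGGCG match, and whether these have a part in the rise was not tested.

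A cluster of 3 neighbouring regions of chromosome 2 rose together. They are named to AK140370 in the first sheet and Hsd17b12 in the second, over 100 kb away, and lie 4129, 7589 and 9974 bp from the window of Mir670. Region 1 (94103090 to 94108280) had 3.83 and 4.77 in U0126 and 4.67 and 4.80 in vehicle at 60 min, against 1.75 and 2.22 in U0126 and 2.63 and 2.92 in vehicle unstimulated, a log2 change of 0.81 (SE 0.165, adjusted p 0.00898 with the block, 0.190 without). Region 2 (94108510 to 94109780) had 1.45 and 2.87 in U0126 and 2.23 and 2.03 in vehicle at 60 min, against 0.937 and 0.447 in U0126 and 0.999 and 1.16 in vehicle unstimulated. Its log2 change was 0.90 (adjusted p 0.0101 with the block, 0.0976 without). Without the 5 libraries and the block, regions 1 and 2 had adjusted p of 0.0261 and 0.0227. Region 3 (94110960 to 94112100) changed by 0.76 (adjusted p 0.00729 with the block, 0.328 without), and its lowest library at 60 min (1.45) lay below its highest unstimulated library (1.76). Regions 1 and 2 did not overlap between the groups. All 6 regions of the locus had positive values, with a median of 0.62, but the other 3 did not pass. Pol II at the Mir670 window was low, 0.159 and 0.0878 at 60 min in vehicle, against 0.376 and 0.197 unstimulated for 1 h, and the window was not tested because it was in the lower 50% of genes.

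Another 5 regions were higher with the block. Pdk3 region 1 (chromosome X, 91134640 to 91135870), 57821 bp from a pyruvate dehydrogenase kinase gene, had 3.65 and 4.47 in U0126 and 4.56 and 4.21 in vehicle at 60 min, against 2.15 and 2.13 in U0126 and 2.06 and 2.17 in vehicle unstimulated. These groups did not overlap, and the log2 change was 0.83 (SE 0.177, adjusted p 0.0106 with the block, 0.119 without, 0.0211 without the 5 libraries). Pthlh region 1, 54683 bp from the gene of a parathyroid hormone-related peptide, changed by 0.76 (adjusted p 0.0156 with the block, 0.309 without). Its signal at 60 min was 3.77 in U0126 and 4.20 in vehicle in replicate 1, against 1.88 and 1.75 in replicate 2. Kcna2 region 7, 26736 bp away, changed by 0.62 (0.0187 with the block, 0.138 without). Mest region 5, 8480 bp from an imprinted gene, changed by 0.57 (0.047 with the block, 0.158 without). Ccno region 1, 25446 bp from a cyclin gene and 19380 bp from the window of Mcidas, changed by 0.67 (0.0471 with the block, 0.201 without). All 5 had groups without overlap. The last 2 are close to the threshold, and were still called in 4 and 5 of the 16 fits that left out 1 library. Nfkbid region 3, at the shortest distance of all, was called in 2 of 47 settings, both without the 5 libraries (log2 change 0.96, adjusted p 0.0257 with no block, and 0.91, adjusted p 7.54e-06 with it). It was at 0.64 (adjusted p 0.186) with the block and all libraries.

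Acetylation fell at 4 regions at 60 min with the block. Zfp207 region 2 (chromosome 11, 80112680 to 80113690) is named to a spindle assembly factor gene 83595 bp away, while the window of Rhbdl3, a rhomboid family gene, is 1228 bp away. It had 0.828 and 0.749 in U0126 and 0.806 and 1.10 in vehicle at 60 min, against 2.48 and 2.03 in U0126 and 2.54 and 1.44 in vehicle unstimulated. The groups did not overlap, and the log2 change of -0.84 (SE 0.172) had an adjusted p of 0.00935 with the block and 0.0811 without. Signals in vehicle were already 1.18 and 1.50 at 10 min and 0.711 and 0.956 at 30 min. Pol II at the Rhbdl3 window was 0.738 and 0.587 at 60 min in vehicle, against 0.476 and 0.492 unstimulated for 1 h, a log2 change of 0.32 that did not pass (adjusted p 0.817). Dennd2c region 4 (chromosome 3, 103050240 to 103051330), 97822 bp from a DENN domain gene and 32430 bp from the window of Trim33, had 0.944 and 1.02 in U0126 and 1.04 and 0.743 in vehicle at 60 min, against 1.57 and 1.83 in U0126 and 1.89 and 1.94 in vehicle unstimulated. Its log2 change was -0.62 (adjusted p 0.03 with the block, 0.186 without), and its groups did not overlap. Kcna1 region 8, 43684 bp from the gene, changed by -0.63 (adjusted p 0.0151 with the block, 0.707 without), and its sheets differed more than its times, with 0.501 to 0.988 in replicate 1 and 1.21 to 2.63 in replicate 2 in vehicle at these 2 times. Cux2 region 5 changed by -0.63 (adjusted p 0.0471 with the block, 0.467 without) and was still called in 3 of the 16 fits that left out 1 library. Its groups overlapped, and with the block and cyclic loess it did not pass (limma adjusted p 0.0515).

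**Figure D4:**
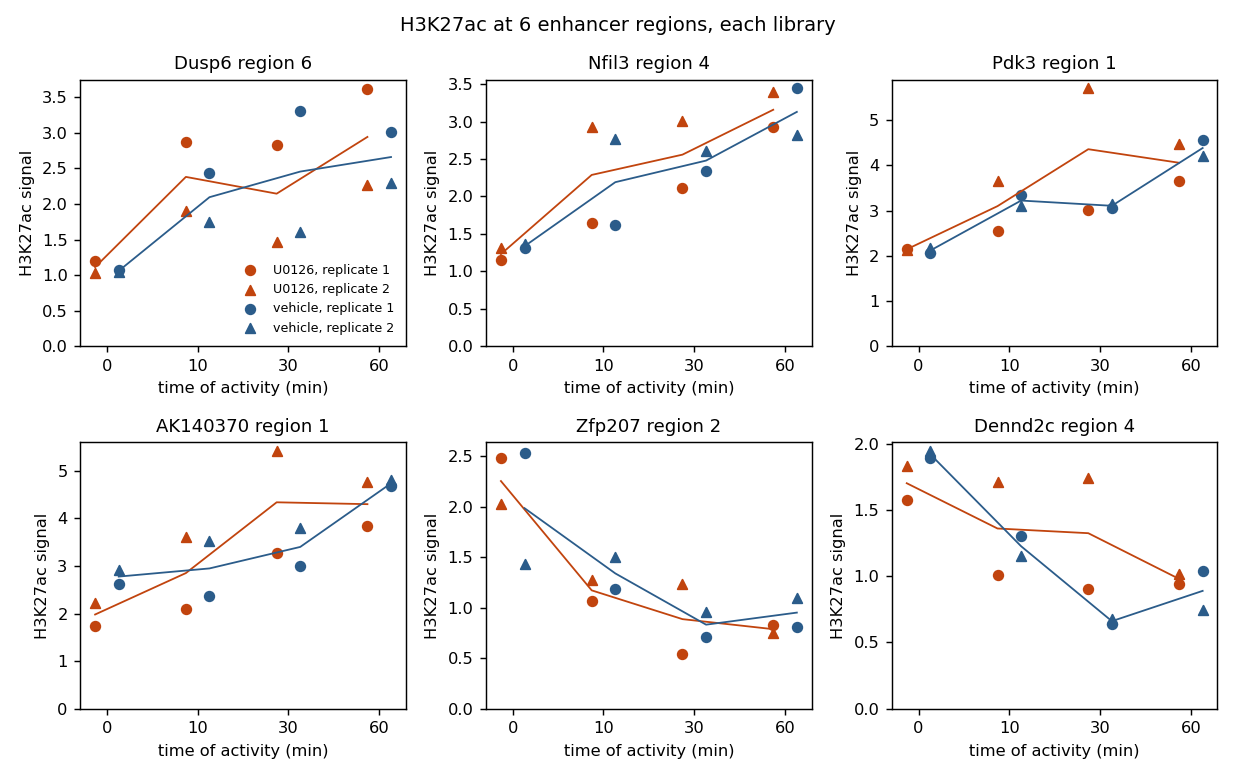
H3K27ac signal in each library at 6 of the called regions by time of activity, U0126 in orange left of vehicle in blue, circles for replicate 1, triangles for replicate 2, lines through group means. In the first 4 panels all 60 min libraries lie above all unstimulated ones, and in the last 2 they lie below.

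At 10 and 30 min no region passed with all libraries, each centred on its median. At 30 min with the block, cyclic loess gave 8 in vehicle and 4 in U0126, and quantile normalization 2 in vehicle and 3 in U0126. At 10 min in vehicle 0 of the 454 regions passed with or without the block, with 7 (1.28% of all regions) at an unadjusted limma p under 0.05 without it. At 30 min it was 0 with or without the block, with 17 regions (4.26% of all regions). With the block the unadjusted counts were 22 at 10 min (5.32% of all regions) and 66 at 30 min (14.9%), against 39 at 60 min (12.7%). The 66 regions are 14.5% of the 454, near the share of all regions. Vehicle 30 min replicate 1 is also among the 5 libraries that stood apart, so these counts do not rank the times. In U0126 limma called 0 at 10 and 30 min with or without the block. The unadjusted counts in U0126 without the block were 8 at 10 min (2.23% of all regions) and 10 at 30 min (3.62%), and with it 23 (5.85%) and 24 (9.04%). For the mean of the 3 vehicle times limma called 0 with or without the block, against 0.213% of all regions with it, and the unadjusted count without the block was 16 (4.04%). At 10 min in vehicle the lowest p was that of Esyt1 region 2, named to an extended synaptotagmin gene, which averaged 1.29 ± 0.116, against 2.52 ± 0.324 unstimulated (SD, n = 2 each), a log2 change of -0.69 (limma adjusted p 0.998). The regions with the lowest p at 30 min were Dennd2c region 4 (log2 change -0.91, adjusted p 0.832) and Spry4 region 3 (-0.77, 0.832), the second named to an inhibitor of receptor tyrosine kinase signalling to ERK. With the block and without the 5 libraries, on 2 residual degrees of freedom, 12 regions passed in vehicle at 30 min, and 11 and 34 in U0126 at 10 and 30 min. No share over all regions is given for that fit or for cyclic loess and quantile normalization. The 11 regions called higher at 60 min had median log2 changes in vehicle of 0.26 at 10 min, 0.44 at 30 min and 0.73 at 60 min. They were chosen for their 60 min value, and all 3 share the unstimulated libraries. In vehicle at 60 min the median SE of a region was 0.338 without the block and 0.250 with it. Log2 changes well under 1 could thus not be detected at single regions there with the block. Without the block changes near 1 did not pass either, as at AK140370 region 3 (1.03, limma adjusted p 0.945).

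No locus passed in vehicle when the regions of a gene were averaged. The comparison with both drugs joined, which gave the 15 called regions, was not run on loci. For the 141 genes limma called 0 at 10, 30 and 60 min in vehicle with or without the block, as for all 259 loci (0%). At an unadjusted p under 0.05, 2, 6 and 3 loci were left without the block, against 1.54%, 3.09% and 3.09% of all loci. With the block there were 4, 17 and 14, against 3.86%, 11.6% and 11.6%. The lowest p at 60 min were those of Pdk3 (log2 change 0.91, SE 0.29, adjusted p 0.955), Dusp6 (0.38, SE 0.151) and Ccno (0.60, SE 0.252). Loci differed in how their regions lined up at 60 min with both drugs joined. All 7 Kcna4 regions had positive values, between 0.15 and 0.44, as had 14 of 15 at D3Bwg0562e, with a median of 0.26, and 7 of 8 at Rgs13, with a median of 0.43. Only 1 of 9 Cux2 regions and 1 of 7 at Nptx2, a secreted synaptic pentraxin gene that is itself activity-regulated, had a positive value, with medians of -0.41 and -0.24. Without the 5 libraries that stood apart, the number of positive values was 6 of 7 at Kcna4, 11 of 15 at D3Bwg0562e, 6 of 8 at Rgs13, 2 of 9 at Cux2 and 1 of 7 at Nptx2. The medians there moved toward 0, to 0.03 at Kcna4, 0.12 at D3Bwg0562e, 0.20 at Rgs13, -0.21 at Cux2 and -0.15 at Nptx2. Regions of a locus share their libraries, and apart from Cux2 region 5 none of the regions of these 5 loci passed.

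No region differed detectably between U0126 and vehicle when all libraries were used. U0126 minus vehicle called 0 of the 454 regions in the unstimulated libraries, at 10, 30 and 60 min and averaged over the 4 times, with and without the block. At an unadjusted limma p under 0.05 without the block it was 4, 1, 5 and 1 regions at the 4 times and 2 for the average, against 0.426%, 0.426%, 0.851%, 0.426% and 0.532% of all regions. The interactions, the activity effect in U0126 minus that in vehicle, also called 0 at 10, 30 and 60 min, with 1, 6 and 1 regions at an unadjusted p under 0.05 without the block (0.213%, 0.957% and 0.106% of all regions). With the block the unadjusted counts for the drug were 8 (1.7% of all regions) unstimulated, 7 (1.7%), 11 (2.02%) and 3 (0.745%) at the 3 times and 6 (1.7%) for the average. For the interactions they were 6 (1.06%), 15 (2.34%) and 8 (1.28%). With the block and without the 5 libraries, on 2 residual degrees of freedom, limma called regions for the drug and for the interaction at 30 min. In that fit 5 groups have 1 library each, and no share over all regions is given. Those calls therefore show nothing particular to the 454 regions. The 2 lowest p of the average were those of Sik3 region 1 and Slc25a30 region 2. Sik3 region 1 averaged 0.346 ± 0.0722 in U0126 and 0.543 ± 0.146 in vehicle (SD, n = 8 each), a log2 difference of -0.26 (limma adjusted p 0.999). At 60 min the lowest p was that of Stac region 1, with 0.224 ± 0.0205 in U0126 and 0.647 ± 0.0121 in vehicle (SD, n = 2 each), a difference of -0.57 (SE 0.238, limma adjusted p 0.999). The lowest p of the interaction at 30 min was that of AI836003 region 3, at -0.96 (SE 0.317, adjusted p 1.00), whose signal averaged 0.166 ± 0.0987 in U0126 and 0.538 ± 0.230 in vehicle at 30 min. Of the 15 regions called at 60 min, 11 were higher and 4 lower in each drug. The shared direction was largely set in advance, because they were called on the average of both drugs. Their interactions at 60 min lay between -0.55 and 0.34, and all 15 of the 95% intervals held 0. The intervals are from the fit without the block. At Dusp6 region 6 the log2 change was 1.02 in U0126 and 0.99 in vehicle, and the interval of their difference was -1.05 to 1.11. At Nfil3 region 4 it was 1.03 in U0126 and 0.97 in vehicle, with an interval of -0.87 to 1.00. With the block the intervals were narrower, -0.67 to 0.73 at Dusp6 region 6 and -0.64 to 0.77 at Nfil3 region 4, and again all 15 held 0. A difference between the drugs within these intervals was not detectable.

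The groups below are the named genes found on lists of known genes, and a gene outside a list may have the same role. Over all 940 regions, 4.15% were called higher and 1.17% lower at 60 min with the block, and shares of small groups are set beside these only as a description. Ion channel genes (Cacng5, Kcna1, Kcna2, Kcna4, Kcnh8, Kcnj4 and Kcnq3) had 45 regions, of which 1 rose (2.22%) and 1 fell (2.22%) at 60 min with the block, with a median log2 change of 0.00. Genes known from earlier work as activity-regulated (12 genes, among them Dusp6, Nfil3, Homer1, Nptx2, Spry4 and Vgf) had 67 regions, of which 3 rose (4.48%) and 1 fell (1.49%), with a median of -0.06. The ERK feedback genes Dusp6 and Spry4 had 11 regions, of which 2 rose (18.2%), both at Dusp6, and 0 fell. Transcription and chromatin regulators (Cux2, Hdac9, Nfil3, Nr3c1 and Zfp207) had 27 regions, of which 1 rose (3.7%) and 2 fell (7.41%), with a median of -0.07. The matches to the list of kinases, phosphatases and GTPase regulators (Arhgap29, Mapk7, Ppp1r13l, Rgs13 and Stk11, which leaves out Dusp6 and Pdk3; 15 regions, median 0.33), solute carriers (15 regions, median -0.14), axon guidance and adhesion genes (7 regions, median 0.29), Sorcs3 as the single match to the excitatory synapse list (6 regions, median -0.01) and the neuron marker Nefm (3 regions, median 0.10) had 0 calls. The list of presynaptic genes and the marker lists of excitatory and GABAergic neurons, astrocytes, oligodendrocyte lineage, microglia, and endothelial cells and fibroblasts had 0 matches. The medians of the 454 regions and of all 940 were 0.00 and 0.04.

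Pol II rose at a few of the named genes, although none is in the study's 2 sets. Of the 141 genes, 135 are in the Pol II table and 92 were in the upper 50% by density and tested among 12097 genes. At 10 min 1 of the 92 was called (0.19% of all genes), at 30 min 6 (1.42%) and at 60 min 1 (0.157%), all higher. The median log2 change of the 92 was 0.16, 0.19 and 0.19, against 0.03, 0.02 and 0.03 for all genes tested. If the study set its classes with these Pol II libraries, which the files do not say, the counts are not independent of the choice of genes.

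Homer1, a postsynaptic scaffold gene, had a Pol II density of 3.45 and 1.95 at 10 min in vehicle, against 0.844 and 0.693 unstimulated for 1 h, a log2 change of 1.57 (SE 0.354, adjusted p 0.0478). The limma call was lost without vehicle 10 min replicate 1 (adjusted p 0.785) and without either unstimulated library (0.396 and 0.227). It was also lost, just at the threshold, without either 60 min library (0.0503 at the most). At 30 min Vgf, a neuropeptide precursor gene, had 6.03 and 4.49, against 1.29 and 2.29 unstimulated, a change of 1.49 (SE 0.296, adjusted p 0.00752). Cyr61, a matricellular protein gene, had 3.42 and 2.80, against 1.03 and 1.14 (1.37, SE 0.248, adjusted p 0.00294). Gadd45b, a DNA damage and demethylation factor gene, had 7.56 and 5.26, against 1.64 and 3.28 (1.36, adjusted p 0.00815). Ccno (1.33, adjusted p 0.0269), Spry4 (1.31, 0.0321) and Chga, the gene of the granule protein chromogranin A (1.03, 0.0488), were also called. With quantile normalization limma called 0 of the 92 at 10 and 30 min, and without the filter on density it called 0 at 10 min. At 60 min Cyr61 was at 3.12 and 2.77, a change of 1.30 (adjusted p 0.0109). None of the 92 was called at 30 min without vehicle 30 min replicate 1 or unstimulated 1 h replicate 1, and at 60 min none without either 60 min library or unstimulated 1 h replicate 1. Nfil3 and Dusp6, whose regions rose in acetylation, had Pol II changes of 1.07 and 0.83 at 30 min that did not pass without a block (adjusted p 0.187 and 0.152) but did with it (0.00375 and 0.0276). At 10 min Dusp6 was at 1.07 (adjusted p 0.147 without the block, 0.0111 with it).

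**Figure D5:**
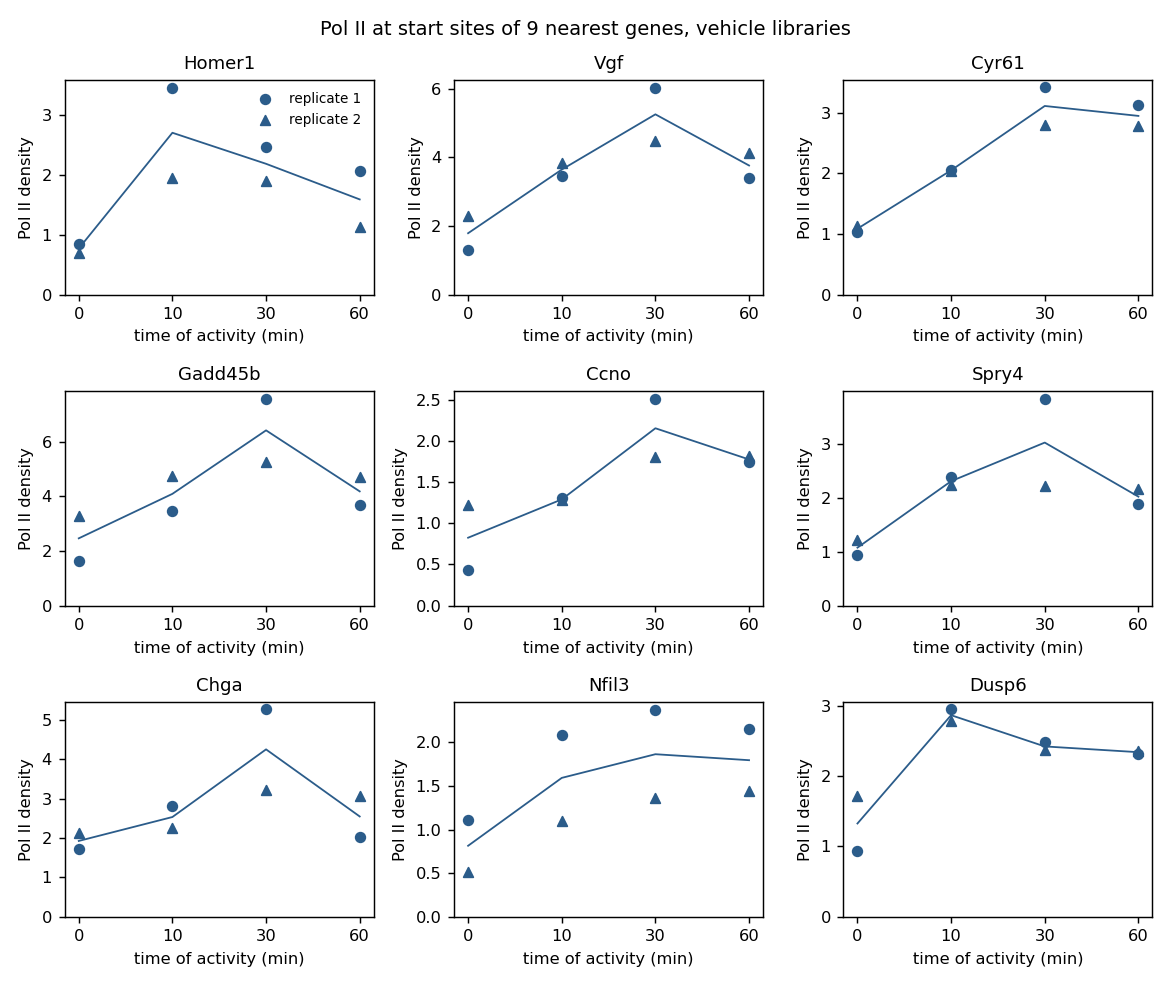
Pol II density in each vehicle library at the start sites of 9 named genes by time of activity, 0 being unstimulated for 1 h, with circles for replicate 1, triangles for replicate 2 and lines through the means. Homer1 peaks at 10 min and Vgf, Gadd45b, Spry4 and Chga at 30 min, while Cyr61 remains near 3 at 60 min.

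Which genes had both a Pol II call and a called region depends on the fit of Pol II. Of the 7 genes called for Pol II without a block, Ccno had its single region called at 60 min with the block. With the replicate number as a block in both, 16 genes were called for Pol II at some time, and 4 of them had a called region, Ccno, Dusp6, Mest and Nfil3. Called regions lay at 12 of all 141 named genes, of which 92 were tested for Pol II. The 12 include AK140370, Dennd2c and Pthlh, which were not tested for Pol II, so the shares are not of like sets. The region calls join both drugs at 60 min, while the Pol II calls are from vehicle at 10, 30 or 60 min. The block for Pol II called 1.08%, 5.47% and 1.07% of all genes at 10, 30 and 60 min, and the Pol II replicate numbers were not taken as pairs. At Cyr61 the 7 regions had log2 changes of -0.06 to 0.53 (lowest adjusted p 0.0667 with the block), at Vgf the 4 regions -0.48 to 0.32 (0.127) and at Gadd45b the 4 regions -0.44 to 0.32 (0.137). The 3 Spry4 regions were at -0.49 to -0.16 (0.0991), the 3 Homer1 regions at -0.21 to 0.02 (0.472) and the Chga region at 0.00 (0.99). The Pol II and H3K27ac libraries are separate, and whether the 2 measures differ at a gene was not tested. Omg region 1, 849 bp from the Mir212 window, had 1.92 and 7.82 in U0126 and 3.44 and 6.17 in vehicle at 60 min, against 1.24 and 2.69 in U0126 and 1.93 and 3.40 in vehicle unstimulated. It was higher at 60 min in 4 of 4 pairs of the same drug and sheet (17.6% of all regions), and its log2 change of 0.83 (SE 0.235) just missed the threshold with the block (adjusted p 0.0531).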

How the data were processed

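Sonicated chromatin of formaldehyde-fixed neurons was immunoprecipitated, per the labels' protocols. The submitters' processing notes name Bowtie2, SAMtools, bedtools and mm9, with no version, and how they were set is not stated. Per the file headers, the authors deposited a signal for each enhancer (H3K27ac, called normalized) and a density for each TSS window (Pol II), with no read counts, so depth is unknown. Distances in bp are as deposited.

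All 940 regions, and 12097 genes (those above the median Pol II density), were tested with limma 3.58.1 in R 4.3.3 on log2 of the value plus a pseudocount at percentile 25 of positive values (0.628 and 0.148), each library centred on its median, with a mean per group, a variance trend and Benjamini-Hochberg adjustment. The pseudocount makes changes of low values smaller than their ratio. Residual degrees of freedom were 8 for H3K27ac (7 with the block) and 15 for Pol II, where all 31 libraries of both drugs and all times were fitted. The procedure was tested on simulated data.

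Replicate numbers come from the labels and match the sheets. Deviations of same-numbered H3K27ac libraries from their group means correlated in all 28 pairs of groups (0.280 to 0.887), so the numbers were taken to pair the libraries and blocked values stand beside the results. Pol II correlations were 0.0534 to 0.242 in 6 pairs, with 5 over 0.1, and were not taken as pairing. Input libraries were not used here.

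The members, gene lists and tests were chosen with earlier results of these data known. Named items are, per comparison, up to 5 called each way or the 3 with the lowest p, the 5 strongest and 3 weakest regions, the 8 genes with most regions, the 3 nearest and 3 farthest regions, up to 5 Pol II calls each way, and 4 regions a list. The regions called with the block, Nfkbid region 3 and loci named for lined-up signs were chosen after their values were seen.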

Additional observations from a re-analysis of the deposited data

How the results depend on the processing

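With the replicate block, called regions at 60 min with both drugs joined were 15, against 0 without it, and 1 in vehicle alone and 2 in U0126 alone. The other comparisons of time and drug stayed at 0 with the block. The planned fit of each comparison was a mean per group with no block. The block was an alternative fit, and the libraries were taken as paired from correlations in these same data. Alternatives that join the block with another change, and those without the 5 libraries, were chosen after seeing the data. For both drugs joined the count without the block was 4 with cyclic loess (Nfil3 region 4 higher; Dusp6 region 2, Spry4 region 2 and Zfp207 region 2 lower), 1 with quantile normalization and 6 without the 5 libraries. With the block it was 39 with cyclic loess, 32 with quantile normalization, 14 with a pseudocount of 1, 14 with the values as deposited and 39 without the 5 libraries, and 6 to 27 without each library in turn (23 and 13 without the replicate 2 unstimulated library of U0126 and of vehicle). With the block and without the 5 libraries, with 2 residual degrees of freedom, the counts were 12 and 41 in vehicle at 30 and 60 min, 20 for the vehicle mean, 11, 34 and 21 in U0126 at 10, 30 and 60 min, 5 for U0126 minus vehicle at 30 min and 37 for the interaction at 30 min, where 5 groups have 1 library each, assumed to vary like the others. With the block and cyclic loess they were 8 and 7 in vehicle at 30 and 60 min, 10 for the vehicle mean, and 4 and 8 in U0126 at 30 and 60 min, and with quantile normalization 2 in vehicle at 30 min, 7 for the vehicle mean, and 3 and 3 in U0126 at 30 and 60 min. With the block and a pseudocount of 1, the counts were 1 in vehicle and 2 in U0126 at 60 min. Without the 5 libraries and without the block, U0126 at 30 min gave 1. Leaving out each library with the block gave 0 to 2 in vehicle at 60 min, 0 to 6 in U0126 at 60 min and 0 to 3 for the vehicle mean. No share over all regions is given for these alternatives, so their counts do not set the 454 regions apart. None of the 15 regions called with the block reversed direction with cyclic loess, quantile normalization or without the 5 libraries. At Kcna4, 7 of 7 regions had positive values with all libraries and 6 of 7 without the 5.

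For Pol II the counts with the replicate block were 5, 14 and 5 at 10, 30 and 60 min, against 1, 6 and 1, with quantile normalization 0 at 10 and 30 min, and without the filter 0 at 10 min. Without each library in turn they were 0 to 1, 0 to 9 and 0 to 1. For quantile normalization, no filter and libraries left out, no share over all genes is given. Those Pol II counts therefore do not set the named genes apart. The mean log2 change of the 454 regions at 60 min in vehicle was 0.0425, against the median of 0.0199. The log2 ratio of signal beyond 20 kb to that within 5 kb was -0.91 from medians, -0.55 from means and -0.14 between the farthest and nearest 25% of regions. The cause of these differences was not tested.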
